A study of Mus musculus with 36 samples.

Results

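The genes described here build and run motile cilia. The list held 37 genes: the heavy chains of the axonemal dyneins, their docking and assembly factors, radial spoke, tektin and central pair genes, other axonemal genes and the transcription factor gene Foxj1. All 37 were found by their GENCODE M21 names among the 55487 genes of the count table, Dnai2 under its earlier name Dnaic2. All 37 had a mean of at least 0.2 CPM, the usual unit of read counts scaled to a common library size, in at least 1 group, so none was dropped. The highest group mean of a gene ran from 0.288 CPM for Dnaaf1 to 33.6 CPM for Cfap69.

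RNA sequencing was done on dorsal spinal cord and dorsal root ganglion (DRG) of female mice, and the question of the study was how the knockout changes the response to nerve injury. The 8 groups were sigma-1 knockout mice after spared nerve injury (SNI), wild-type mice after SNI, naive knockout mice and naive wild-type mice, each in cord and in DRG, with 4 libraries in an SNI group and 5 in a naive group. SNI cuts some branches of the sciatic nerve and leaves another intact. The labels used here gave neither age nor time after injury, nor whether libraries of a group came from separate animals, so p-values measure the spread between these libraries only. Library totals were 21.34 to 27.27 M reads. Naive DRG libraries A2 and A4 carried wild type in their titles and knockout in the genotype field, and the field was followed. Letters A to C named naive libraries and letters E and F named SNI libraries, so letter and injury cannot be told apart. Cord libraries E6 (knockout, SNI) and E7 (wild type, SNI) stood below the other cord libraries for many of the cilia genes.

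Motile cilia and sperm tails are built on the axoneme, a ring of microtubule doublets around a central pair. Dynein arms slide the doublets past each other, while radial spokes, the nexin links and the central pair shape the beat. FOXJ1 and factors of the RFX family switch on the genes of motile cilia. In the spinal cord, the ependymal cells that line the central canal carry motile cilia, whereas sensory neurons and their satellite glia are known for short, immotile primary cilia.

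RefSeq promoter windows of build GRCm38.p6, from 250 bases before to 50 bases after a gene's start, matched 29 of the 37 genes. Foxj1, Rsph1, Rsph4a, Dnah3, Cfap54, Cfap65, Armc4 and Dnaaf1 were not matched. The X-box, a pair of inverted arms known to bind RFX factors, written GTTGCNNNGCAAC and identical on both strands, stood in 6 of the 29 genes (Dnah6, Dnah7a, Dnah7b, Dnai2, Tekt2 and Tekt4) and in 7 of their 32 windows. Among all 32851 windows it stood in 74, or 0.225%. The 150 bases before the RefSeq start are shown for Dnah6 and Dnah5, the heavy chain genes with the lowest adjusted p in injured DRG of both genotypes, called in opposite directions, and for Dnah7a and Dnah7b, near copies with unlike genotype differences. The Dnah6 stretch lies at chr6:73221632-73221781 (minus strand) and that of Dnah5 at chr15:28203616-28203765 (plus strand). The Dnah7a stretch lies at chr1:53706785-53706934 (minus strand) and that of Dnah7b at chr1:46066703-46066852 (plus strand). Capitals mark the X-box.
Dnah6: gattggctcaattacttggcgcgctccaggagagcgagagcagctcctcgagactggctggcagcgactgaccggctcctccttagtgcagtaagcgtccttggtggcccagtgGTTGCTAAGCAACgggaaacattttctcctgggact
Dnah7a: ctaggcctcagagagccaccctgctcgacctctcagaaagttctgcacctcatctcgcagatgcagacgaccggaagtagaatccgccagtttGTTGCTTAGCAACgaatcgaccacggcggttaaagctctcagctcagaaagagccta
Dnah7b: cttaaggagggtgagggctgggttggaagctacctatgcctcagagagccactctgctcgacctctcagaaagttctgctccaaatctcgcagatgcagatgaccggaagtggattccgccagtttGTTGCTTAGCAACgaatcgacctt
Dnah5: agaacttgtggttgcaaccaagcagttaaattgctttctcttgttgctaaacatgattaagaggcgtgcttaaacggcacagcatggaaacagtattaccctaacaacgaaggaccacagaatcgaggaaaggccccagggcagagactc

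The Dnah7a and Dnah7b stretches carried the same X-box letters. Their 300-base windows were identical at 228 of 337 alignment positions (67.7%). Gaps are counted among these positions, so the value is lower than the identity of the aligned bases. The longest protein-coding transcripts of the pair were 96.4% identical, counted in the same way. The stretch shown for Dnah5 held no match to these letters. A single arm with the letters GTTGCC or GGCAAC stood in 13 of the 29 genes and in 12.5% of all windows. The forkhead letters GTAAACA or TGTTTAC stood in 2 of the 29 genes (Ak7 and Cfap43) and in 3.65% of all windows. These letters were chosen after the sequences had been seen, and a match is a description of the window only.

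Of the cilia genes with enough reads in both tissues, most were higher in dorsal cord than in DRG of the same genotype. Of the 36 genes tested, 27 also passed the filter on low counts within DRG, which ran over naive and injured libraries. Dnah3, Dnah5 and Dnah11 passed it wholly or mostly through injured libraries. They had 1 to 7, 3 to 13 and 3 to 17 reads per naive DRG library. A higher level in cord was thus favoured by the filter for these genes, which stay in the counts below. In naive wild-type mice 21 of these 27 were higher in cord and 3 were lower (edgeR quasi-likelihood test, adjusted p under 0.05 over all genes tested, which is what called means below). Over all genes tested 76.7% were called in this comparison, 36.6% higher and 40.1% lower. In naive knockout mice 20 of the 27 were higher and 4 lower, against 74.8% of all genes called, 37.8% higher and 37.0% lower. The median log2 fold change of the 27 genes was 1.32 in wild type and 1.29 in knockout, against -0.06 and 0.00 over all genes tested. The other 9 genes (Dnah12, Tekt1, Tekt4, Spag6l, Spag16, Spag17, Cfap65, Tmem212 and Armc4) passed the filter through their cord libraries, so that they were higher in cord follows from the filter and they are given as values. In bulk tissue, fewer cells of a type and less RNA per cell cannot be told apart.

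Foxj1, the ciliogenesis factor (chr11:116330704-116335399 of GRCm38), was at 16.3, 15.1, 16.02, 13.5 and 14.6 CPM in naive wild-type cord, against 4.16, 3.36, 3.61, 3.89 and 2.66 CPM in naive wild-type DRG. Its log2 fold change was 2.10 ± 0.15 (SE, adjusted p = 1.21e-14). In naive knockout mice it was at 11.4, 12.1, 10.7, 13.5 and 13.3 CPM in cord, against 5.70, 4.31, 5.39, 5.42 and 5.57 CPM in DRG (1.21 ± 0.15, adjusted p = 5.28e-09). Every cord library lay above every DRG library in both genotypes.

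All 3 outer arm heavy chain genes were higher in cord, which the filter favoured for Dnah5 and Dnah11, low in naive DRG. Dnah5, a main motor of the outer arm, averaged 5.51 ± 0.912 CPM in wild-type cord and 0.346 ± 0.0679 CPM in wild-type DRG (SD, n = 5 each), a log2 fold change of 3.97 ± 0.22 (SE). Dnah9 averaged 6.51 CPM in wild-type cord and 1.72 CPM in DRG (1.92 ± 0.16). Dnah11, known for left-right patterning in the embryo, averaged 2.45 CPM in wild-type cord and 0.399 CPM in DRG (2.61 ± 0.37). Of the 6 inner arm heavy chain genes that passed the filter within DRG, 5 were higher in wild-type cord, led by Dnah1 (3.20 ± 0.14). Among these 5, Dnah3 had passed through injured DRG libraries, so its result was favoured by the filter. Dnah6 was the exception. It averaged 5.42 ± 1.41 CPM in wild-type cord and 5.79 ± 1.59 CPM in wild-type DRG, and its difference was not called. In knockout mice Dnah6 was lower in cord, at 3.90 ± 0.504 CPM against 7.11 ± 0.929 CPM in DRG (-0.87 ± 0.26, adjusted p = 0.0032).

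Of the central pair genes, Cfap46, Hydin and Cfap54 had enough reads in both tissues, and all were higher in cord in both genotypes. Cfap46 averaged 13.4 CPM in wild-type cord and 1.67 CPM in DRG (3.01 ± 0.12). Hydin was higher in wild-type cord by 1.81 ± 0.28 on the log2 scale and Cfap54 by 0.40 ± 0.10. Spag6l, Spag16 and Spag17 were too low in DRG for the filter there. Spag6l, a central pair scaffold gene, averaged 4.03 CPM in wild-type cord and 0.124 CPM in DRG, on 75 to 112 and 0 to 6 reads per library.

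The tektins, filament proteins of the doublet wall, were split. Tekt1 had 27 to 41 reads per naive wild-type cord library and 0 to 8 per naive wild-type DRG library, and Tekt4 had 16 to 26 and 0 to 5. Tekt2 was lower in cord, at 2.02 ± 0.752 CPM in wild-type cord against 5.08 ± 0.607 CPM in DRG (-1.33 ± 0.15). Ccdc39 and Ccdc40 encode partners in the ruler that spaces the inner arms and spokes, and they also differed from each other. Ccdc40 was lower in cord (-1.09 ± 0.14 in wild type and -1.39 ± 0.14 in knockout), while Ccdc39 was higher (0.24 ± 0.08 and 0.69 ± 0.09). Of the radial spoke genes, Rsph4a was higher in wild-type cord (2.34 ± 0.23) and Rsph1 was not called (0.11 ± 0.17). Cfap61, a spoke-associated gene, was lower in cord in both genotypes (-0.45 ± 0.11 and -0.42 ± 0.11). The X-box was found in the windows of Tekt2, Dnah6 and Dnai2, none of which was higher in cord in either genotype. It was also found in those of Dnah7a and Dnah7b, which were higher in wild-type cord. Tekt4, the remaining gene with an X-box, passed the filter through cord alone and is left out of this split.

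Several genes were barely present in DRG. Tmem212, a gene of ciliated cells, had 0 reads over the 5 naive wild-type DRG libraries and 110 over the 5 naive wild-type cord libraries, at least 41.9-fold higher in cord when DRG is set at 3 reads over the group. Armc4, an outer arm docking gene, had 65 reads in naive wild-type cord and 3 in naive wild-type DRG. Within DRG 10 genes fell under the filter on low counts (Dnah12, Tekt1, Tekt4, Spag6l, Spag16, Spag17, Cfap65, Tmem212, Armc4 and Dnaaf1), and 27 were tested. Dnaaf1, an assembly factor, was tested in no comparison.

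**Figure D1:**
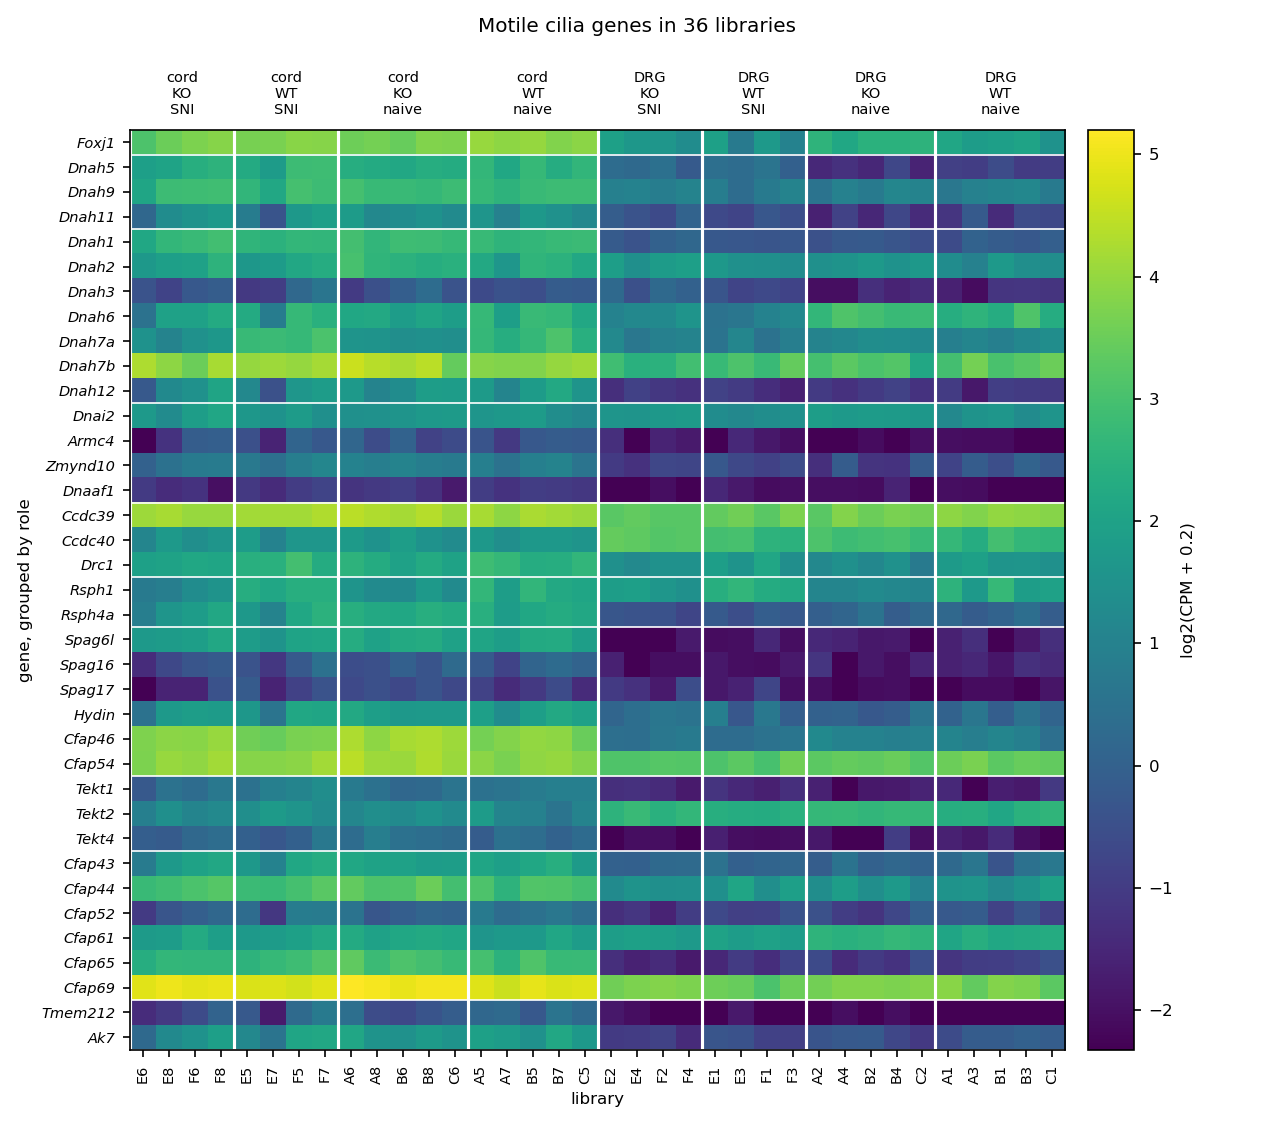
Level of each of the 37 genes (down the page, grouped by role) in each of the 36 libraries (across, by group), as log2 of CPM plus 0.2. Most genes are higher in the 18 cord libraries than in the 18 DRG libraries. Among naive libraries, Dnah6, Tekt2, Ccdc40 and Cfap61 are as high or higher in DRG.

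**Figure D2:**
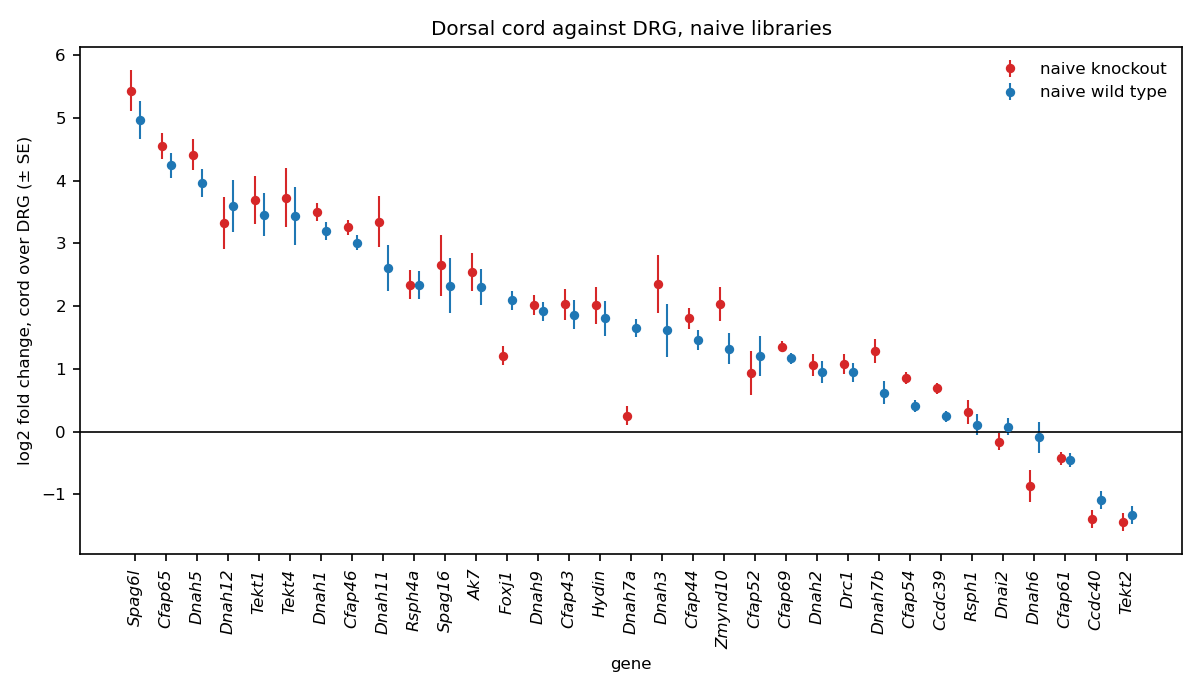
Log2 fold change of cord over DRG in naive knockout (red) and naive wild-type mice (blue), with bars of 1 SE; genes with 3 or fewer reads in a naive DRG group are left out. Most points lie above 0. For Dnah12, Tekt1, Tekt4, Spag6l, Spag16 and Cfap65, which passed the filter through cord, this follows from the filter. Tekt2, Ccdc40 and Cfap61 lie below 0 in both genotypes. Dnah6 lies below 0 as well, though its difference was not called in wild type.

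Per kilobase of exon, the order of the genes differed between tissues. In naive wild-type cord Foxj1 had the highest level, 5.75 CPM per kb, followed by Rsph1 with 3.52, Cfap69 with 3.48, Ccdc39 with 2.31 and Drc1 with 2.17 CPM per kb. The lowest levels there were those of Spag17 with 0.0342 and Dnah3 with 0.0402 CPM per kb. In naive wild-type DRG the highest was Rsph1 with 3.25 CPM per kb, then Tekt2 with 2.67, Ccdc39 with 1.95, Cfap69 with 1.55 and Foxj1 with 1.35 CPM per kb. In naive knockout DRG Tekt2 came first with 3.29 CPM per kb, then Foxj1 with 2.01, and Rsph1 had 1.46 CPM per kb. The CPM summed over the 37 genes ranged from 178.8 to 220.7 in naive wild-type cord and from 97.3 to 104.4 in naive wild-type DRG.

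Markers of ciliated and neighbouring cells were read in the same libraries. Of 8 ependymal genes from outside the axoneme, 2 (Sox9 and Mia) were higher in wild-type cord and 5 were lower, with sums of 162 to 228 CPM in naive wild-type cord and 2203 to 2436 CPM in naive wild-type DRG. The list holds genes such as Vim and S100a6 that glia and neurons of the DRG also express. Both genes of neurons that contact the cerebrospinal fluid, Pkd2l1 and Pkd1l2, were higher in cord. Choroid plexus genes summed to 4.75 to 14.1 CPM over all libraries. No gene of these lists was at 0 in every library of a group, and the part of these cells in the tissue difference was not tested.

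Nerve injury moved a few cilia genes in DRG, in both directions. In wild-type DRG 2 of 27 genes rose (Dnah5 and Dnah3) and 4 fell (Dnah6, Ccdc39, Cfap61 and Cfap46). Over all genes tested 24.9% were called, 12.6% higher and 12.3% lower. In knockout DRG 5 of 27 rose (Dnah5, Dnah3, Dnah11, Rsph1 and Ccdc40) and 5 fell (Dnah6, Cfap61, Foxj1, Rsph4a and Cfap46), against 28.5% of all genes, 15.1% higher and 13.3% lower. Neither the 6 of 27 called in wild type nor the 10 of 27 in knockout was far from the share over all genes. Dnah3 passed the filter on low counts through injured libraries, at 9 to 24 reads against 1 to 7 in naive ones. Dnah5 (15 to 33 against 3 to 13 reads) and Dnah11 (9 to 19 against 3 to 17 reads) passed mostly through them. The filter thus favoured a rise of these genes, and their calls are given as descriptions. Leaving out 1 library gave 4 to 7 in wild type and 7 to 11 in knockout. The median log2 fold change of the 27 genes was -0.21 in wild type and -0.05 in knockout, against -0.01 and 0.01 over all genes. Groups did not overlap for 5 genes in wild type, against 18.2% of all genes tested, and for 10 in knockout, against 33.1%.

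Dnah6 had the lowest adjusted p of the 27 genes in both genotypes. This inner arm heavy chain gene (chr6:73017606-73221651, minus strand) was at 1.23, 1.34, 1.80 and 2.08 CPM in injured wild-type DRG, against 4.995, 5.73, 4.83, 8.55 and 4.84 CPM in naive wild-type DRG. In injured knockout DRG it was at 1.80, 2.08, 2.19 and 2.76 CPM, against 6.11, 8.48, 7.56, 6.59 and 6.80 CPM in naive knockout DRG. The highest injured library was well below the lowest naive library in both genotypes. The log2 fold change was -1.83 ± 0.20 (SE, adjusted p = 1.57e-06) in wild type and -1.65 ± 0.19 (adjusted p = 3.37e-06) in knockout.

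Dnah5 (chr15:28203752-28472052, plus strand) went the other way. It was at 1.15, 1.05, 1.29 and 0.789 CPM in injured wild-type DRG, against 0.333, 0.320, 0.465, 0.299 and 0.311 CPM in naive wild-type DRG. In injured knockout DRG it was at 1.06, 0.997, 1.16 and 0.667 CPM, against 0.164, 0.222, 0.161, 0.406 and 0.137 CPM in naive knockout DRG. No injured library overlapped a naive library, on 15 to 33 reads against 3 to 13 reads. The gene passed the filter within DRG mostly through injured libraries. The log2 fold change was 1.62 ± 0.26 (adjusted p = 0.0001) in wild type and 2.18 ± 0.28 (adjusted p = 1.1e-05) in knockout. Even after injury the DRG level stayed below that of every cord library, which lay between 3.33 and 7.11 CPM.

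Dnah3, another inner arm heavy chain gene, was at 0.593, 0.378, 0.431 and 0.374 CPM in injured wild-type DRG, against 0.125, 0.040, 0.251, 0.256 and 0.242 CPM in naive wild-type DRG (1.26 ± 0.40, adjusted p = 0.0274). In injured knockout DRG it was at 0.981, 0.520, 0.985 and 0.801 CPM, against 0.041, 0.0444, 0.201, 0.136 and 0.183 CPM in naive knockout DRG (2.75 ± 0.41, adjusted p = 4.73e-05). Injured libraries lay above naive ones in both genotypes, on 9 to 24 reads against 1 to 7 reads. The gene passed the filter within DRG through injured libraries, which favoured a rise. The exons of Dnah3 overlap those of Lyrm1 on the opposite strand over 10.5% of their length, and the sources used here do not give the strand setting of the counting. The wild-type call was lost without A1, A3 or E1 (highest adjusted p = 0.0851).

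Dnah11 rose in knockout DRG, with 0.735, 0.564, 0.448 and 0.845 CPM after injury against 0.123, 0.355, 0.161, 0.406 and 0.183 CPM in naive libraries (1.43 ± 0.38, adjusted p = 0.00853). In wild-type DRG it averaged 0.485 CPM after injury and 0.399 CPM in naive libraries, which was not called. The knockout groups did not overlap. The third outer arm gene, Dnah9, was called in neither genotype, at 0.11 ± 0.17 in knockout and -0.18 ± 0.17 in wild type on the log2 scale.

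Cfap61 (chr2:145934784-146215039, plus strand) was at 3.80, 3.36, 3.77 and 3.37 CPM in injured wild-type DRG, against 4.08, 5.04, 4.26, 4.57 and 4.78 CPM in naive wild-type DRG (-0.34 ± 0.09, adjusted p = 0.0115). In injured knockout DRG it was at 3.47, 3.69, 3.54 and 3.07 CPM, against 5.70, 5.33, 5.63, 6.28 and 5.80 CPM in naive knockout DRG (-0.70 ± 0.09, adjusted p = 1.41e-05). The groups were apart in both genotypes. The wild-type call was lost with no filter on low counts and when only the 2 groups compared were fitted (highest adjusted p = 0.0749).

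Foxj1 fell in knockout DRG. It was at 3.64, 2.95, 2.91 and 2.31 CPM in injured knockout DRG, against 5.70, 4.31, 5.39, 5.42 and 5.57 CPM in naive knockout DRG (-0.80 ± 0.21, adjusted p = 0.00724). In wild-type DRG it was at 3.68, 1.51, 3.06 and 1.83 CPM after injury, against 4.16, 3.36, 3.61, 3.89 and 2.66 CPM in naive libraries (-0.47 ± 0.21, adjusted p = 0.12). The knockout groups did not overlap, and the wild-type groups did. The difference of the responses was not called (-0.33 on the log2 scale, knockout minus wild type).

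Ccdc39 (chr3:33812362-33844310, minus strand) was at 10.2, 11.6, 9.57 and 12.96 CPM in injured wild-type DRG, against 14.9, 13.4, 15.6, 14.8 and 13.9 CPM in naive wild-type DRG (-0.38 ± 0.10, adjusted p = 0.00959). The groups did not overlap, though the highest injured library came close to the lowest naive one, and without F1 the call was lost (adjusted p = 0.0513). The exons of Ccdc39 overlap those of Ttc14 on the opposite strand over 16.9% of their length. Cfap46 was at 1.07, 1.05, 1.22 and 1.33 CPM in injured wild-type DRG, against 1.92, 1.64, 1.93, 1.71 and 1.14 CPM in naive wild-type DRG (-0.50 ± 0.16, adjusted p = 0.0275). Naive library C1 lay among the injured ones, and the call was lost without A1, B1, B3, E1, E3 or F1, by DESeq2, with no filter and when only the 2 groups compared were fitted (highest adjusted p = 0.102).

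In knockout DRG, Rsph4a of the spoke head was at 0.613, 0.564, 0.537 and 0.400 CPM after injury, against 0.778, 0.888, 1.25, 0.723 and 0.959 CPM in naive libraries (-0.76 ± 0.22, adjusted p = 0.013). The groups were apart, and the call was lost without B2 (adjusted p = 0.0607). Rsph1, also of the spoke head (chr17:31255019-31277383, minus strand), was at 3.43, 3.56, 2.86 and 2.54 CPM after injury, against 1.93, 1.95, 2.21, 2.03 and 1.92 CPM in naive knockout DRG (0.66 ± 0.20, adjusted p = 0.0159). All injured libraries were above all naive ones, and the call was lost without E4 (adjusted p = 0.0562) and without both A2 and A4 (adjusted p = 0.0735). Ccdc40 averaged 9.65 CPM after injury and 7.45 CPM in naive knockout DRG (0.41 ± 0.12, adjusted p = 0.0195), a call lost without E2 or E4 (highest adjusted p = 0.0621). Cfap46 averaged 1.28 CPM after injury and 1.86 CPM in naive knockout DRG (-0.50 ± 0.16, adjusted p = 0.0238), a call lost without A2, E2 or E4, by DESeq2, with no filter and without both A2 and A4 (highest adjusted p = 0.115).

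The response to injury was not called as different between genotypes for any of the 27 genes in DRG. Over all genes 0.0256% were called by edgeR, 0.0205% higher and 0.00513% lower, and 3 of the 27 cilia genes had an unadjusted p under 0.05. Those 3 were Cfap61, Dnah3 and Dnah11, with differences of -0.37, 1.49 and 1.13 on the log2 scale (knockout minus wild type). DESeq2 likewise called 0 of the cilia genes.

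**Figure D3:**
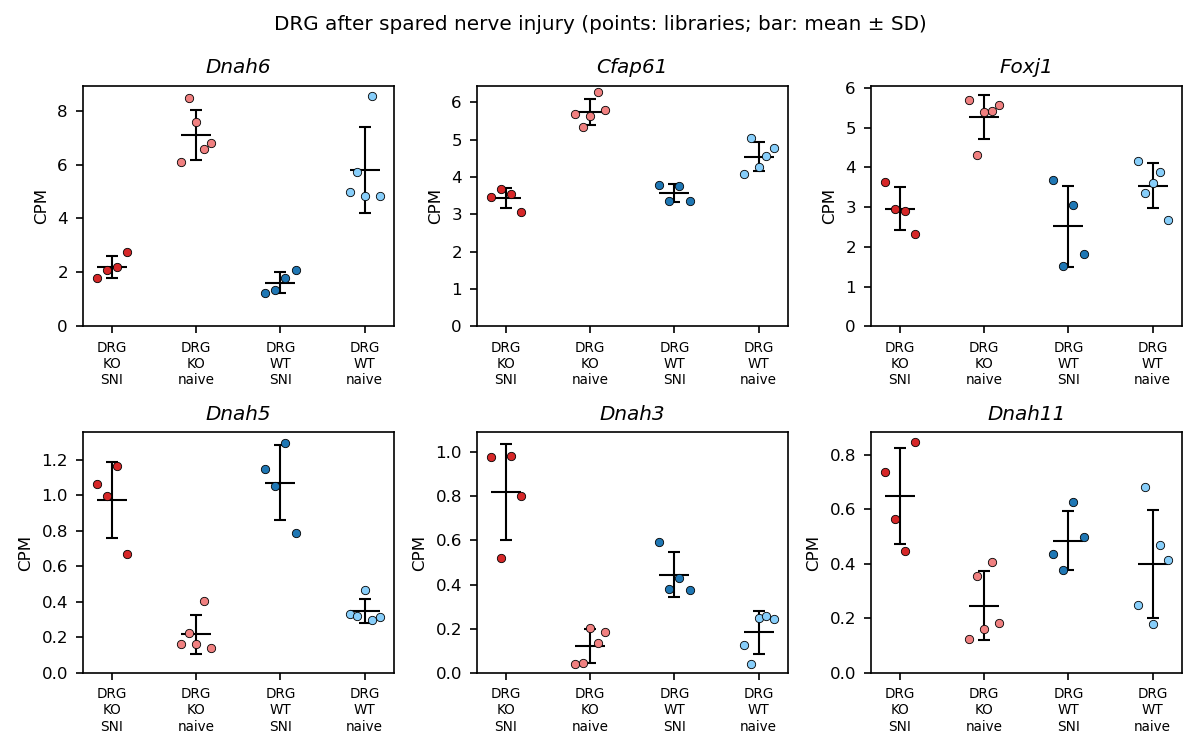
CPM per library of Dnah6, Cfap61, Foxj1, Dnah5, Dnah3 and Dnah11 in the 4 DRG groups, with the mean and SD of each group. The injured libraries sit below naive ones for Dnah6 and Cfap61 and above them for Dnah5 and Dnah3 in both genotypes. Dnah3, and for the most part Dnah5, passed the filter on low counts through injured libraries.

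Other cell types moved in the same DRG libraries. All 9 macrophage and microglia genes rose after injury in both genotypes, with sums of 306.5 to 379.1 CPM in injured knockout DRG against 92.6 to 148.1 CPM in naive knockout DRG. In wild type the sums were 335.9 to 560.6 CPM in injured DRG against 124.7 to 220.5 CPM in naive DRG. Of 10 sensory neuron genes, 1 rose and 6 fell in knockout DRG (sums of 10260 to 13130 CPM after injury against 13350 to 17150 CPM), while 1 rose and 3 fell in wild-type DRG (8425 to 13070 CPM after injury against 9049 to 12960 CPM). Of the 8 ependymal genes, 6 rose in knockout DRG, with sums of 2352 to 2514 CPM after injury against 1836 to 2082 CPM, and 2 rose in wild-type DRG (2326 to 2723 CPM after injury against 2203 to 2436 CPM). Of 9 genes of satellite glia and astrocytes, 3 rose and 2 fell in knockout DRG (1047 to 1187 CPM after injury against 970.3 to 1123 CPM), and 3 rose and 1 fell in wild-type DRG (937 to 1353 CPM after injury against 979.9 to 1354 CPM). Sums over Pkd2l1 and Pkd1l2 were 4.82 to 7.63 CPM in injured DRG and 1.49 to 3.62 CPM in naive DRG of both genotypes, with Pkd2l1 called higher. No marker was at 0 in every library of a group, and the part of these cells in the injury values was not tested.

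Between genotypes most cilia genes were not called, and the called genes were few and mixed in direction. In naive DRG 4 of 27 genes were higher in knockout (Cfap61, Tekt2, Dnai2 and Foxj1) and 3 were lower (Rsph1, Ccdc39 and Drc1), against 28.2% of all genes called, 12.8% higher and 15.4% lower. In injured DRG Ccdc40 was higher and Rsph1 lower, against 5.1% of all genes, 2.39% higher and 2.71% lower. In naive cord 4 of 36 genes were higher (Cfap69, Cfap46, Cfap54 and Cfap61) and 3 were lower (Dnah7a, Rsph1 and Foxj1), against 19.7% of all genes, 9.79% higher and 9.94% lower. In injured cord 3 were lower (Dnah7a, Rsph1 and Drc1) and 0 higher, against 6.26% of all genes, 2.95% higher and 3.31% lower. Groups did not overlap for 5 genes in naive DRG and 6 in injured DRG, against 18.8% and 12.3% of all genes tested, and for 5 in naive cord and 5 in injured cord, against 11.7% and 13.0%. In naive DRG 2 genes were called without A2 and 3 without A3 or B2. In injured DRG 0 were called without E2, E4 or F3 and 1 without E1, E3, F2 or F4. The genotype values in naive mice and the injury values share the naive libraries of each genotype.

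Rsph1 was lower in knockout in all 4 settings. In naive cord it was at 2.74, 2.24, 2.19, 3.08 and 2.21 CPM in knockout, against 6.10, 3.44, 6.02, 4.49 and 4.08 CPM in wild type (-0.95 ± 0.17, adjusted p = 0.000315). In injured cord it was at 1.505, 1.66, 2.33 and 2.72 CPM in knockout, against 4.97, 4.17, 5.04 and 5.01 CPM in wild type (-1.22 ± 0.19, adjusted p = 0.000164). Every knockout cord library lay below every wild-type cord library of the same state.

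In naive DRG Rsph1 was at 1.93, 1.95, 2.21, 2.03 and 1.92 CPM in knockout, against 5.62, 3.08, 6.41, 3.46 and 3.74 CPM in wild type (-1.17 ± 0.18, adjusted p = 0.00028). The knockout libraries were close together and the wild-type ones spread widely, with no overlap. In injured DRG it was at 3.43, 3.56, 2.86 and 2.54 CPM in knockout, against 5.10, 5.92, 4.79 and 4.45 CPM in wild type (-0.70 ± 0.19, adjusted p = 0.0436). These groups were apart as well, but the call in injured DRG was lost in 7 of 8 fits that left out 1 library, those without E1, E2, E3, E4, F2, F3 or F4 (highest adjusted p = 0.134), and without both A2 and A4 (adjusted p = 0.0671).

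Dnah7a (chr1:53397006-53706784, minus strand), an inner arm heavy chain gene, was lower in knockout cord and not called in DRG. In naive cord it was at 2.79, 2.70, 2.43, 2.54 and 2.44 CPM in knockout, against 6.27, 4.91, 6.21, 8.40 and 5.12 CPM in wild type (-1.26 ± 0.14, adjusted p = 1.05e-06). In injured cord it was at 2.63, 1.84, 2.60 and 2.99 CPM in knockout, against 6.505, 6.84, 6.36 and 8.18 CPM in wild type (-1.47 ± 0.16, adjusted p = 7.85e-07). The knockout cord libraries lay well below the wild-type ones, near the DRG libraries of both genotypes at 1.22 to 2.39 CPM. In DRG the knockout minus wild-type difference was 0.12 in naive and 0.23 in injured mice on the log2 scale.

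Its near copy Dnah7b (chr1:46066315-46373546, plus strand) was not called in cord. In naive cord it was at 24.1, 20.7, 18.9, 21.1 and 10.6 CPM in knockout, against 13.9, 13.4, 13.6, 16.1 and 17.3 CPM in wild type (0.36 on the log2 scale, 95% interval -0.01 to 0.72). In injured cord it was at 19.1, 14.9, 11.2 and 18.3 CPM in knockout, against 15.98, 16.9, 15.9 and 18.03 CPM in wild type (-0.08). Of the 50-base stretches of the Dnah7a transcript, 40.3% also occur in Dnah7b or Dnah7c, and of those of Dnah7b 48.4% occur in Dnah7c or Dnah7a. How the authors' counting divided such reads is not given in the sources used here, so the levels of the single copies are uncertain. Summed over Dnah7a, Dnah7b and Dnah7c, a sum chosen after the values were seen, the level was 23.2 ± 5.68 CPM in naive knockout cord, against 22.3 ± 2.38 CPM in naive wild-type cord (SD, n = 5 each, exact two-sided permutation test p = 0.802). In injured cord the sum averaged 19.96 ± 4.13 CPM in the knockout libraries, against 25.1 ± 1.81 CPM in the wild-type ones (SD, n = 4 each, exact p = 0.0571, where the smallest possible is 0.0286). Most of the sum was Dnah7b, at a mean of 19.06 CPM in naive knockout cord. Its spread can hide a change of Dnah7a, so the test of the sum does not decide how Dnah7a changed.

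Foxj1 went in opposite directions in the tissues of naive mice. In naive DRG it was at 5.70, 4.31, 5.39, 5.42 and 5.57 CPM in knockout, against 4.16, 3.36, 3.61, 3.89 and 2.66 CPM in wild type (0.56 ± 0.19, adjusted p = 0.0381). In naive cord it was at 11.4, 12.1, 10.7, 13.5 and 13.3 CPM in knockout, against 16.3, 15.1, 16.02, 13.5 and 14.6 CPM in wild type (-0.31 ± 0.10, adjusted p = 0.0342). The groups did not overlap in DRG, and in cord the highest knockout library came level with the lowest wild-type one. The difference between the tissues was not tested as such. The DRG call was lost without A2, A3, B2, B4, C1 or C2 (highest adjusted p = 0.102), and the cord call without A5, A6, A7, A8, B5 or B6 (highest adjusted p = 0.092). In injured cord Foxj1 was at 8.42, 11.1, 12.9 and 14.1 CPM in knockout, against 12.5, 12.7, 14.4 and 13.96 CPM in wild type, and was not called.

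A further 3 genes were higher in naive knockout DRG, each with little room between the groups. Cfap61 was at 5.70, 5.33, 5.63, 6.28 and 5.80 CPM in knockout, against 4.08, 5.04, 4.26, 4.57 and 4.78 CPM in wild type (0.32 ± 0.09, adjusted p = 0.0135). Tekt2 (chr4:126322121-126325688, minus strand) was at 6.27, 6.35, 6.03, 6.37 and 6.25 CPM in knockout, against 4.95, 5.04, 4.19, 5.34 and 5.85 CPM in wild type (0.28 ± 0.09, adjusted p = 0.0277). Dnai2, an outer arm intermediate chain gene, was at 3.44, 3.06, 3.30, 3.25 and 2.97 CPM in knockout, against 2.08, 2.72, 2.90, 2.27 and 2.77 CPM in wild type (0.31 ± 0.11, adjusted p = 0.0372). All 3 genes had every knockout library above every wild-type library. The Tekt2 call was lost without A2, A3, B1 or B4, without both A2 and A4, with no filter and when only the 2 groups compared were fitted (highest adjusted p = 0.0846). That of Dnai2 was lost without A1, A2, A3, B2, B3, B4 or C1, without both A2 and A4, by DESeq2, with no filter and when only the 2 groups compared were fitted (highest adjusted p = 0.115).

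Ccdc39 was lower in naive knockout DRG, at 9.42, 13.9, 11.1, 12.7 and 12.01 CPM against 14.9, 13.4, 15.6, 14.8 and 13.9 CPM in wild type (-0.31 ± 0.10, adjusted p = 0.024). Drc1, of the nexin-dynein regulatory complex, was at 2.09, 2.53, 2.05, 2.57 and 1.51 CPM in knockout, against 3.25, 3.68, 2.79, 2.86 and 2.56 CPM in wild type (-0.51 ± 0.17, adjusted p = 0.0316). Both pairs of groups overlapped. The Ccdc39 call was lost without A2 or B2 (highest adjusted p = 0.0672), and that of Drc1 without A1, A2, A3, B2 or C2 (highest adjusted p = 0.0912). Without both A2 and A4, Rsph1 and Cfap61 were the 2 genes still called in naive DRG.

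In injured DRG Ccdc40 (chr11:119228572-119265238, plus strand) was at 10.5, 9.97, 8.95 and 9.21 CPM in knockout, against 7.55, 7.86, 5.61 and 5.48 CPM in wild type (0.55 ± 0.13, adjusted p = 0.0194). The groups did not overlap, and the call was lost without E2, E4 or F3 and when only the 2 groups compared were fitted (highest adjusted p = 0.0791). Drc1 was lower in injured knockout cord, at 3.67, 3.86, 4.29 and 4.12 CPM against 5.16, 5.28, 7.51 and 4.75 CPM in wild type (-0.51 ± 0.15, adjusted p = 0.0447). Its groups were apart too, but the call was lost without E5, E6, E7, E8, F5, F6 or F8 and by DESeq2 (highest adjusted p = 0.217).

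The genes that were higher in naive knockout cord had small differences. Cfap69, needed for sperm tails and olfactory cilia, was at 36.9, 34.1, 30.7, 33.0 and 33.1 CPM in knockout, against 28.3, 23.8, 30.0, 27.4 and 28.2 CPM in wild type (0.28 ± 0.06, adjusted p = 0.00111). Cfap54 of the central pair was at 21.1, 16.9, 16.6, 19.6 and 16.4 CPM in knockout, against 14.6, 12.7, 15.2, 15.98 and 13.8 CPM in wild type (0.32 ± 0.09, adjusted p = 0.0119). Neither pair of groups overlapped. Cfap46 was at 19.3, 15.1, 18.6, 19.2 and 16.9 CPM in knockout, against 12.1, 13.6, 15.7, 14.9 and 10.9 CPM in wild type (0.41 ± 0.09, adjusted p = 0.00287). Cfap61 was at 4.62, 3.78, 4.25, 4.59 and 4.19 CPM in knockout, against 2.85, 3.08, 3.10, 4.20 and 3.37 CPM in wild type (0.37 ± 0.13, adjusted p = 0.0488). The groups of these last genes overlapped, and the Cfap61 call was lost without A5, A6, A7, B5, B6, B8, C5 or C6, without both E6 and E7, by DESeq2, by limma and with no filter (highest adjusted p = 0.115).

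**Figure D4:**
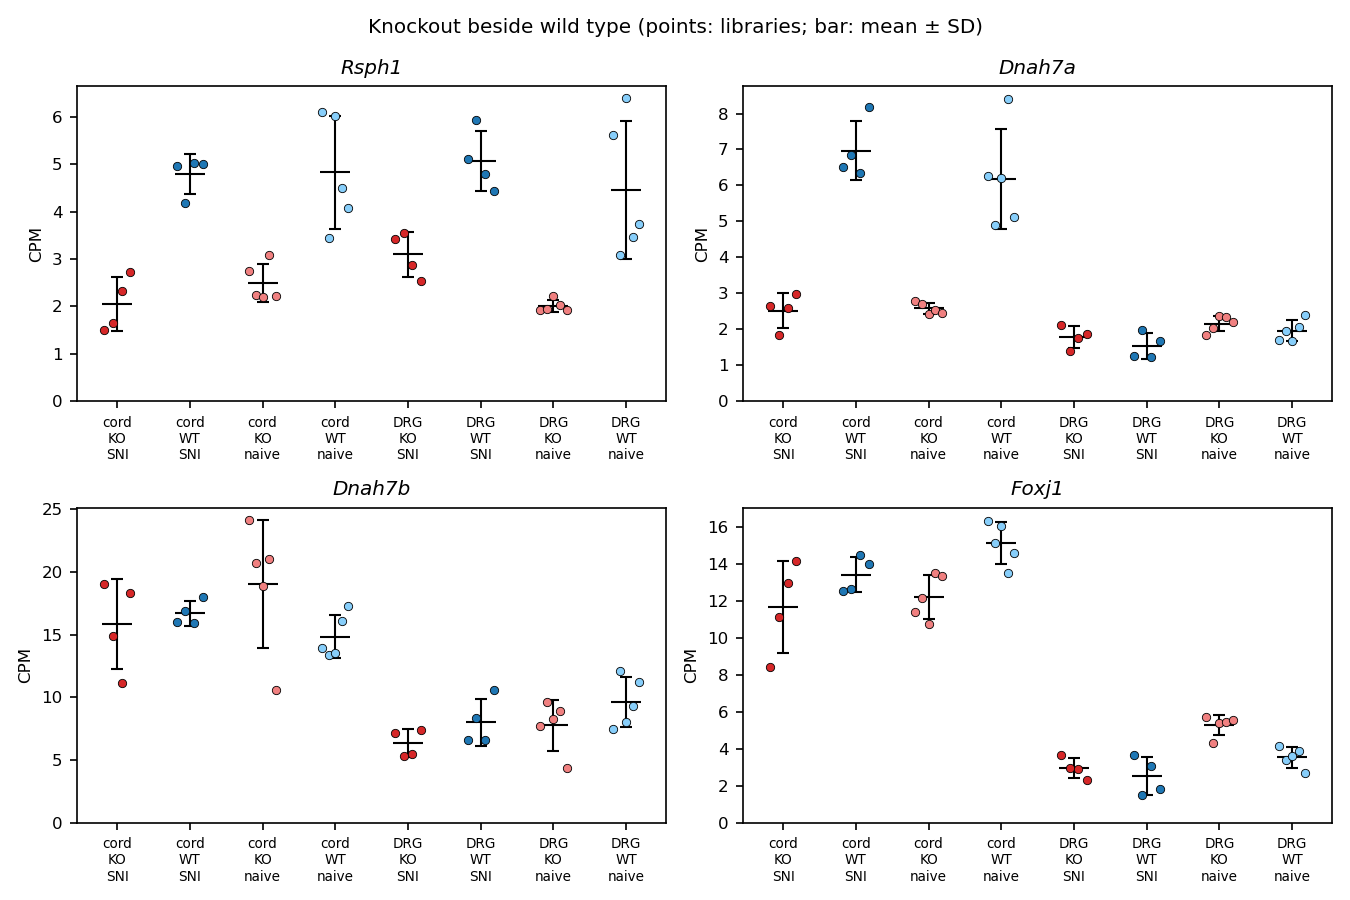
CPM per library of Rsph1, Dnah7a, Dnah7b and Foxj1 in the 8 groups, knockout left of wild type, with the mean and SD of each group. Rsph1 is lower in knockout in all 4 pairs, and Dnah7a is lower in knockout in the cord pairs, from 1.84 to 2.99 CPM against 4.91 to 8.40 CPM in wild type.

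Markers of other cells differed between genotypes in naive DRG. Of 10 sensory neuron genes 7 were higher and 0 lower, with sums of 13350 to 17150 CPM in naive knockout DRG against 9049 to 12960 CPM in naive wild-type DRG. All 5 blood genes were lower, with sums of 188.8 to 599.7 CPM in knockout against 721.2 to 3439 CPM in wild type. Of the 8 ependymal genes 4 were lower (1836 to 2082 CPM in knockout against 2203 to 2436 CPM in wild type), and of 9 macrophage and microglia genes 4 were lower (92.6 to 148.1 CPM against 124.7 to 220.5 CPM). Of 9 genes of satellite glia and astrocytes 5 were higher and 1 lower (970.3 to 1123 CPM in knockout against 979.9 to 1354 CPM in wild type), and of 7 genes of leptomeninges and fibroblasts 3 were lower (1544 to 1894 CPM against 1730 to 3098 CPM). In naive cord 4 of 5 blood genes were lower (141.4 to 177.5 CPM in knockout against 175.2 to 496.4 CPM in wild type), and 1 of 5 Schwann cell genes was lower (344.9 to 892.2 CPM in knockout against 598.9 to 1200 CPM in wild type). Of the 9 genes of satellite glia and astrocytes 3 were higher and 2 lower in naive knockout cord (7220 to 7939 CPM in knockout against 7089 to 7740 CPM in wild type), and no ependymal gene was called there. In injured cord the Schwann cell sums were 314.3 to 520.8 CPM in knockout, against 526.8 to 1020 CPM in wild type. None of these genes was at 0 in every library of a group, and their part in the genotype values was not tested.

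No cilia gene was called after nerve injury in dorsal cord. In wild-type cord 0 of 36 genes were called by edgeR and 0 had an unadjusted p under 0.05, against 2.88% of all genes called, 2.61% higher and 0.271% lower. In knockout cord 0 of 36 were called and 9 had an unadjusted p under 0.05, against 4.42% of all genes called, 3.79% higher and 0.626% lower. DESeq2 called 0 in both genotypes. Leaving out 1 library, edgeR called 1 gene in wild type without A5, and in knockout 1 without A8 or C6 and 2 without F8. The median log2 fold change of the 36 genes was -0.07 in wild type, with 10 genes above 0, and -0.24 in knockout, with 1 above 0. In knockout cord the lowest adjusted p was that of Cfap65 (-0.45, adjusted p = 0.0802), followed by Cfap46 (-0.29, adjusted p = 0.102). The genotypes' responses were not called as different for any of the 36 genes or for any gene at all (0.0%), and 4 cilia genes had an unadjusted p under 0.05. Over the same comparison all 9 macrophage and microglia genes rose in both genotypes, with sums of 503.5 to 557.4 CPM in injured cord and 203.3 to 262.2 CPM in naive cord.

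A pair of injured cord libraries was low for many of these genes. Across 18 cord libraries E6 was the lowest for 16 of 36 genes and E7 for 9. Both lay below all 16 others for 18 genes and below the median of the others for 29. The median log2 ratio of the 36 genes to the other cord libraries was -0.66 in E6 and -0.50 in E7, against -0.28 to 0.30 in the others. Pkd2l1 and Pkd1l2, genes of the neurons around the central canal, summed to 2.31 CPM in E6 and 5.50 CPM in E7, against 6.25 to 13.4 CPM in the others. The 8 ependymal genes from outside the axoneme were read as ranges of a group, which do not show where E6 and E7 stood. They summed to 248.8 to 313.7 CPM in injured knockout cord and 236.8 to 303.6 CPM in injured wild-type cord, E6 and E7 included. In naive cord they summed to 156.5 to 228.1 CPM. The part of these cells in the low libraries was not tested. Without E6 and E7, Dnah7a and Rsph1 were still lower in injured knockout cord and Drc1 was no longer called.

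**Figure D5:**
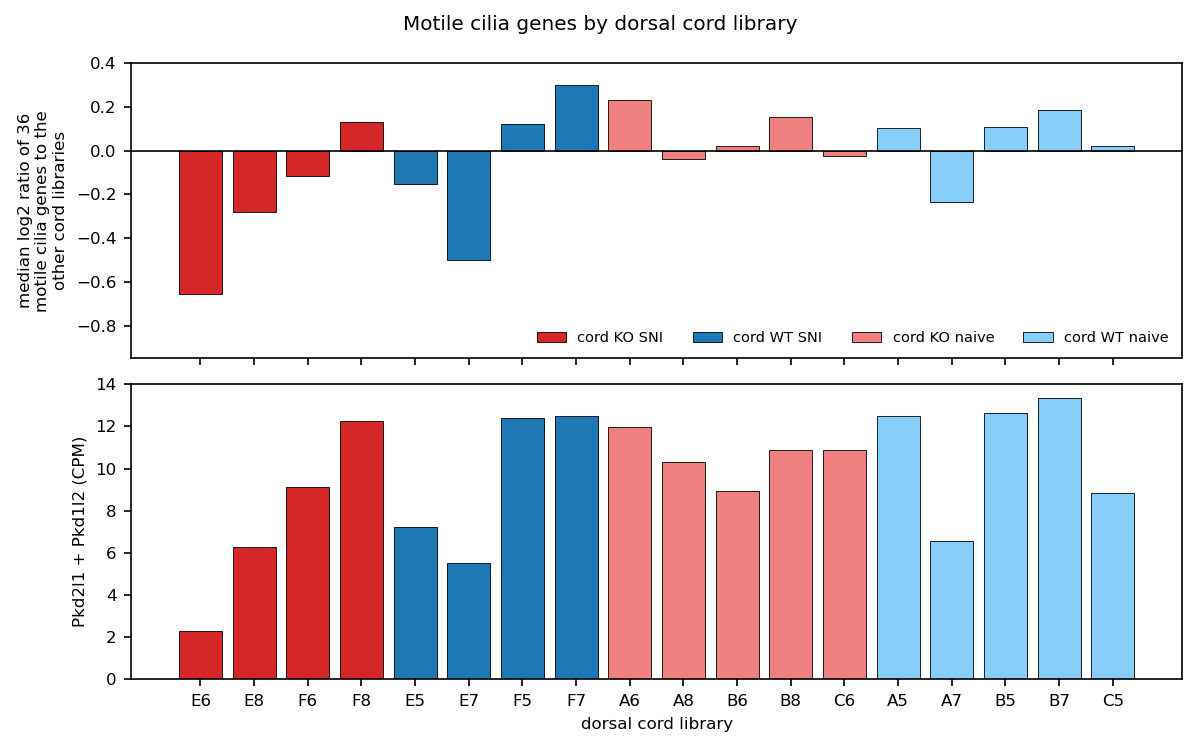
Upper panel: median log2 ratio of 36 cilia genes in each cord library to the other cord libraries. Lower panel: CPM of Pkd2l1 plus Pkd1l2 in the same libraries. E6 and E7 are lowest in both panels, at -0.66 and -0.50 and at 2.31 and 5.50 CPM.

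Within groups the cilia genes varied together across cord libraries and hardly across DRG libraries. After group means were removed, the median correlation between pairs of genes was 0.489 over 630 pairs in cord, 90.3% of them positive, and 0.024 over 351 pairs in DRG, 51.3% of them positive. Without E6 and E7, a choice made after the values were seen, the median in cord was 0.392, with 87.3% of the pairs positive. Each value over all 18 libraries of a tissue rests on libraries that share depth and dissection between genes, so it is a description with no test. The genes that tracked Foxj1 most closely in cord were Rsph4a (r = 0.679), Rsph1 (0.667), Dnah12 (0.646), Dnah1 (0.635) and Dnah6 (0.626). In DRG the highest values were those of Rsph4a and Hydin (both 0.53) and Drc1 (0.385). Negative values there reached further from 0, for Cfap44 (-0.736) and Dnah7a (-0.583).

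The injury response itself differed between cord and DRG for a few genes. In wild type 2 of 36 genes responded higher in cord than in DRG and 1 lower, against 12.5% of all genes called, 6.92% higher and 5.59% lower. In knockout 3 responded higher and 5 lower, Spag17 among them, against 17.2% of all genes, 10.5% higher and 6.69% lower. Dnah5 averaged 5.51 CPM in injured and in naive wild-type cord and had a cord response of -0.06 on the log2 scale in knockout. The difference from its DRG response was -1.61 ± 0.32 (adjusted p = 0.000459) in wild type and -2.20 ± 0.35 (adjusted p = 2.03e-05) in knockout. Dnah6 had a cord response of -0.28 in wild type and -0.22 in knockout, and the difference from its DRG response was 1.56 ± 0.41 (adjusted p = 0.00754) in wild type and 1.47 ± 0.41 (adjusted p = 0.0103) in knockout. Dnah5 and Dnah6 were called in both genotypes.

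The other differences were called in 1 genotype each, which does not show that the genotypes differ. In wild type Ccdc39 responded higher in cord by 0.47 ± 0.13 (adjusted p = 0.0115), a call lost without F1 (adjusted p = 0.0532). In knockout Dnah3 responded lower in cord by -2.86 ± 0.61 (adjusted p = 0.000883), and Foxj1 and Cfap61 responded higher by 0.77 ± 0.23 and 0.52 ± 0.16. Rsph1 and Dnah2 responded lower by -0.90 ± 0.29 and -0.74 ± 0.26. Spag17 passed the filter through its cord libraries alone, and its DRG response rests on 2 to 11 reads in injured and 0 to 1 reads in naive knockout DRG libraries, so no size is given for its difference here. The calls were lost for Foxj1 without F4, F6 or F8 (highest adjusted p = 0.0786), for Cfap61 without A2, C6, E2, F4 or F6 and with no filter (highest adjusted p = 0.149), and for Rsph1 without E6 (adjusted p = 0.0717), without both A2 and A4 or without both E6 and E7 (highest adjusted p = 0.0662). The Dnah2 call was lost without A2, A4, A6, A8, B4, B6, E2, E6, E8, F2, F4 or F6, without both A2 and A4, without both E6 and E7 and with no filter (highest adjusted p = 0.127). In all, 5 genes were called in wild type without B7 and 5 in knockout without F6.

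Other genes of motile cilia, a list of 82 symbols of which 81 were found, were read in the same fits. In DRG 61 were tested. After injury 2 rose and 10 fell in wild type, against 12.6% and 12.3% of all genes, and 2 rose and 5 fell in knockout, against 15.1% and 13.3%. Wdr63, a dynein intermediate chain gene, is among the 2 counted as risen in each genotype. It averaged 1.58 CPM in injured wild-type DRG and 0.103 CPM in naive wild-type DRG. At so low a naive level it passed the filter on low counts through injured libraries. Its rise is therefore given without a size. Mns1 fell by 0.44 in wild type and by 0.39 in knockout. Between genotypes, 1 was higher and 13 lower in naive knockout DRG, against 12.8% and 15.4% of all genes, and 0 higher and 2 lower in injured knockout DRG, against 2.39% and 2.71%. Cfap74, of the central pair, was lower in knockout DRG by -1.28 in naive and -0.93 in injured mice.

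In cord 70 of the 81 were tested, and injury called 0 in either genotype. In naive knockout cord 4 were higher and 5 lower, against 9.79% and 9.94% of all genes, with Dnah8 at 0.86 and Iqcg at -1.02 on the log2 scale. In injured knockout cord 1 was higher (Dnah8, 0.69) and 3 were lower (Cfap74, Iqcg and Dnai1), against 2.95% and 3.31%. Between tissues 71 were tested, against 61 within DRG, and those that passed the filter through cord alone were not taken out. The counts of genes higher in cord therefore follow in part from the filter. They are no result beside the shares over all genes. In naive wild-type mice 38 of them were higher in cord than in DRG, such as Dnai1 (3.41), and 21 were lower, such as Tppp3 (-3.28) and Cfap206 (-3.10), against 36.6% and 40.1% of all genes. In naive knockout mice 36 were higher and 22 lower, against 37.8% and 37.0%.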

How the data were processed

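Expected counts per gene, made by the authors and deposited for 36 libraries, were rounded to whole numbers. FastQC 0.11.5, HISAT2, RSEM and build GRCm38 are named in the submitters' processing notes, without their roles. Poly(A) libraries came from a stranded kit, per the labels' protocols. A second deposited table held normalised signal, equal to the counts scaled by a library factor, and was used as an alternative. In the deposited count table the E1 column, of unit other, mixed decimal commas in 9150 cells with points and had 1 unreadable cell, restored as 1780.86 from the normalised table. No value column was left unused (0).

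edgeR 4.0.16 in R 4.3.3 fitted quasi-likelihood models (TMM scaling, filterByExpr, robust) to 18 DRG libraries (19496 genes), 18 cord libraries (18843) or all 36 (20626), with no block. Benjamini-Hochberg adjusted p-values ran over all genes tested, and under 0.05 was called. CPM used TMM sizes over 36 libraries. Standard errors are the absolute log2 fold change over the root of F. Alternatives were size factors, DESeq2 1.42.0, no filter, limma 3.58.1 on the normalised table (log2 of value plus 1), other sample sets, replicate blocks and leaving out libraries. Values per library are given for genes called within a tissue, lowest adjusted p first, up to 8 per comparison, and for Foxj1, and in other lists for at most 3 genes per direction. Members and lists were chosen with earlier results of these data known. The level of the targeted gene is not reported here.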

Additional observations from a re-analysis of the deposited data

Results flagged for a closer look

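In 7 of 144 groups checked, the 8 groups for each of 17 genes and for the summed level of the 37 genes, a single library stood apart from the rest of its group. Chance alone marks about 1 in 20 groups, so 7 is no more than such a count. The libraries were F7 for Ccdc39 in injured wild-type cord (19.61 CPM, others 17.47 to 17.76) and E7 for Rsph1 in the same group (4.173 CPM, others 4.971 to 5.035). In injured knockout DRG E4 stood apart for Drc1 (2.125 CPM, others 2.533 to 2.596). In naive knockout DRG A2 stood apart for Cfap46 (2.172 CPM, others 1.716 to 1.821) and A4 for Foxj1 (4.307 CPM, others 5.389 to 5.695). In naive wild-type DRG B1 stood apart for Dnah5 (0.4651 CPM, others 0.2991 to 0.333) and B3 for Dnah6 (8.547 CPM, others 4.83 to 5.726).

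The injury response differed between cord and DRG, by edgeR's test of the difference, for Dnah5 (-1.61), Ccdc39 (0.466) and Dnah6 (1.561) in wild type. In knockout it differed for Dnah5 (-2.199), Dnah3 (-2.86), Spag17 (-4.318), Dnah6 (1.466), Foxj1 (0.767), Cfap61 (0.522), Rsph1 (-0.903) and Dnah2 (-0.742). Each value is the log2 response in cord minus that in DRG. The value of Spag17 rests on 0 to 1 reads per naive knockout DRG library, and the gene passed the filter on low counts through cord alone, so its size is not a measured fold.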

How the results depend on the processing

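For 46 differences of single genes, 877 values under other settings gave 749 on the same side of the threshold, 128 no longer past it and 0 of reversed direction. Of 272 counts of called genes, 23 moved by more than 1.5 times. With only the compared groups fitted, the called genes numbered 3 for injury in wild-type DRG, 1 for genotype in injured DRG and 2 for injury in knockout cord. Without A2 and A4, 2 genes were called for genotype in naive DRG and 1 in injured DRG. Libraries of the same number had correlations of -0.104 to 0.158 between genotypes and of 0.0336 to 0.184, all above 0, between tissues. Libraries of unlike number were not set beside them, so whether the same number means a pair was not tested. The main fits held no block. With the replicate block by library letter 1 gene was called for injury in knockout cord, and with the replicate block by column number, chosen after seeing the data, 2 were; no other count of called genes moved by over 1.5 times under a block, and the cause was not tested. Leaving out 1 library gave 4 to 7 called genes for injury in wild-type DRG, 7 to 11 in knockout DRG, 0 to 1 in wild-type cord and 0 to 2 in knockout cord. It gave 2 to 7 for genotype in naive DRG, 0 to 2 in injured DRG, 5 to 8 in naive cord and 2 to 3 in injured cord, 33 and 32 to 33 between tissues in wild type and knockout, and 2 to 5 and 5 to 8 for their injury responses. The counts between tissues are over 36 genes and include the 9 that passed the filter through cord. Their steadiness follows in part from the filter. Depth limits Dnah3, Dnah5 and Dnah11 in naive DRG and the 10 genes not tested there.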

Other observations

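Genes of the primary cilium and intraflagellar transport, 46 in all and all tested, were also read in the same fits. After injury 1 rose and 17 fell in wild-type DRG, against 12.6% and 12.3% of all genes tested, with a median log2 fold change of -0.13. In knockout DRG 2 rose and 17 fell, against 15.1% and 13.3%. Ift80, a transport particle gene, fell by 0.51 in wild type and by 0.37 in knockout, and Kif3a, the gene of a transport motor, fell by 0.41 and by 0.30. Kifap3 rose by 0.41 in wild type. In injured cord 0 were called in wild type, against 2.88% of all genes, and Tctn3 (-0.22) was called in knockout, against 4.42%.

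Between genotypes, 8 were higher and 5 lower in naive knockout DRG, against 12.8% and 15.4% of all genes, and 9 higher and 3 lower in naive knockout cord, against 9.79% and 9.94%. Ttc8, a Bardet-Biedl complex gene, was higher in naive knockout cord by 0.38 on the log2 scale, and Ift74 was lower (-0.57). In injured mice 1 was higher and 2 were lower in knockout, in DRG (2.39% and 2.71% of all genes) and in cord (2.95% and 3.31%) alike. Between tissues, 21 were higher and 17 lower in wild-type cord than in wild-type DRG, against 36.6% and 40.1% of all genes, and 20 higher and 18 lower in knockout, against 37.8% and 37.0%.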
